A study of Mus musculus with 6 samples.

Results

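Bone morphogenetic proteins (BMPs), growth and differentiation factors (GDFs), transforming growth factor-betas (TGF-betas), activins, nodal and the lefty proteins are secreted ligands of one superfamily. Described here are 51 genes of this pathway, taken from a list of ligands, receptors, SMADs, antagonists and ID targets by gene symbol, among 56748 genes in uteri of 3 control and 3 *Gp130* ecKO mice. All 51 were found, and 46 of them were among the 16605 genes with enough counts for the test. The uteri were collected at 1600 h on day 4 of pregnancy, before the embryos attach, from females on a C57BL/6 background, given as C57BL/6J in the methods of the study, that had been mated with fertile wildtype males and were over 8 weeks old. *Gp130* ecKO females carried 1 copy of *Ltf* iCre and 2 floxed *Gp130* alleles, and the control females had no iCre. The labels call the controls WT, whereas the methods of the study allow either floxed or wildtype *Gp130* in them. The *Ltf* gene drives iCre in the mature uterine epithelium and is also active in some myeloid cells, and stroma, vessels and muscle are not its targets. The labels give the tissue as uterus and the design text of the series as endometrium, the inner layer without the muscle wall, and no sort of cells is named. The labels number the uteri without naming animals, so p-values measure the spread between these 6 libraries.

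A dimeric ligand of this superfamily binds 2 kinds of serine/threonine kinase receptor, type II and type I, and the type I receptor phosphorylates receptor SMADs. BMP receptors act mainly through SMAD1, SMAD5 and SMAD9, and TGF-beta and activin receptors through SMAD2 and SMAD3, and both groups enter the nucleus with SMAD4. Secreted antagonists such as follistatin and noggin hold the ligands back, and ID proteins are well known targets of BMP signaling. In the mouse uterus BMP2 and the BMP receptors are known for their part in embryo attachment and in decidualization, the conversion of stroma into the decidua.

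The comparison asks how the RNA of these genes differed between control and *Gp130* ecKO uteri. Values are given as CPM, the RNA-seq count of a gene relative to the library total scaled by the TMM method of edgeR and set to a common size, and are listed for uteri 1, 2 and 3 of a group in that order. Fold changes are on the log2 scale, *Gp130* ecKO over control, from edgeR's quasi-likelihood test, with the standard error (SE) and the p-value adjusted over all 16605 genes. A gene was called when its adjusted p was below 0.05 and its change above 2-fold. Levels are compared between genes only by the deposited TPM, which accounts for gene length.

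Total counts were between 13960748, in control 3, and 25906443. *Il6st*, the gene of GP130, was between 452 and 678 CPM in the controls and between 349.8 and 388 CPM in the knockouts. Its fold change was −0.68 (SE 0.21, adjusted p = 0.120), and the groups did not overlap. On the first dimension of a multidimensional scaling control 2 lay between the groups, at 0.03, with controls 1 and 3 at 2.09 and 2.08 and *Gp130* ecKO between −1.47 and −1.32. On the second dimension controls 1, 2 and 3 lay at 1.7, −0.28 and −1.61, so control 2 was again in the middle. The SD of log2 ratios across genes was 0.711 and 0.791 between control 2 and controls 1 and 3, 0.801 between controls 1 and 3, and 0.625 to 0.826 between control 2 and the *Gp130* ecKO libraries. The counts, and the members and the further genes described by their change whose call or place at an unadjusted p of 0.05 changed on leaving control 2 out, are given with and without it. Control 2 was the control closest to the mean of the *Gp130* ecKO uteri for 22 of the 46 tested members (47.8%) and for 51.1% of all tested genes.

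Some BMP, TGF-beta and activin genes did not overlap between the groups, in both directions. *Bmp2*, *Acvr1*, *Tgfb1* and *Id3* were lower and *Bmp5*, *Acvr2a*, *Acvr1b* and *Id2* higher in each *Gp130* ecKO uterus than in any control. None of the 46 tested members was called. The test called 26 of all 16605 genes (0.157%), and the lowest adjusted p of a member was 0.0648, for *Acvr1*. At an unadjusted p below 0.05 there were 20 members (43.5%), of which 6 were higher and 14 lower in *Gp130* ecKO. Of all tested genes, 12.1% were higher and 12.9% lower at that threshold. The 3 uteri of each group did not overlap for 7 members that were higher and 10 that were lower, against 15.7% and 15.6% of all tested genes. Both directions together held 37% of the tested members and 31.3% of all tested genes. The fitted change was above 0 for 17 members and below 0 for 29, with a median of −0.57, beside a median of −0.05 over all tested genes. DESeq2 called 9 of 45 members, namely *Bmp1*, *Bmp2*, *Bmp5*, *Bmpr1b*, *Acvr1*, *Acvr1b*, *Id2*, *Id3* and *Ltbp1*, and 9.91% of all genes. The exact test of edgeR called *Bmp2*, *Acvr1* and *Id2*, and 7.54% of all genes, and its likelihood ratio test called 4 members and 7.93% of all genes. Without control 2 the quasi-likelihood test called *Bmp2*, *Bmp5* and *Id2* of 47 members, and 5.23% of all genes. In the same fit 19 members had an unadjusted p below 0.05, 7 of them higher and 12 lower, beside 14.2% and 13.1% of all genes, and the median over the members was −0.50. *Inhba*, *Tgfbr1* and *Smad7* were below that p without control 2 and not with it, and *Gdf11*, *Tgfbr2*, *Smad1* and *Fst* the reverse. In the same RNA, summed epithelial markers were at 1806 to 2709 CPM in controls and 3948 to 5441 CPM in *Gp130* ecKO, and summed stromal markers at 1185 to 1460 CPM and 759 to 877 CPM, and their part in these counts was not tested.

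**Figure D1:**
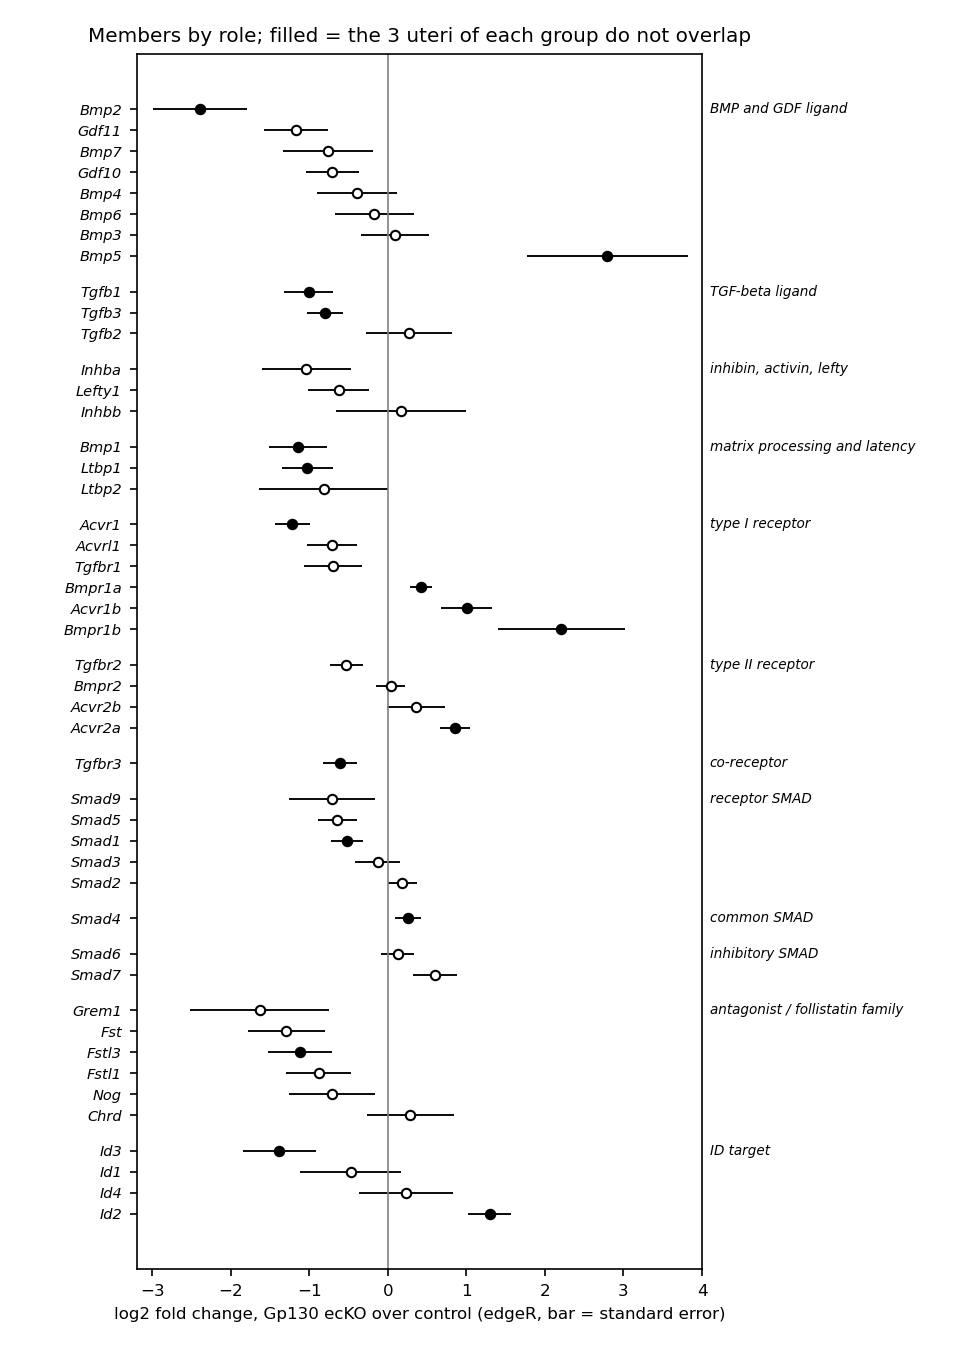
Log2 fold change, *Gp130* ecKO over control, of the 46 tested members (x axis), grouped by role (y axis), with the standard error as a bar. Filled points mark the 17 members whose 3 control and 3 *Gp130* ecKO uteri do not overlap, with *Bmp5* farthest to the right at 2.80 and *Bmp2* farthest to the left at −2.39.

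The sequences just upstream of 4 of these genes are shown because the results for the ID targets, the receptors and the ligands turn on them: *Id2* and *Bmp5*, which were higher in *Gp130* ecKO, and *Id3* and *Acvr1*, which were lower. Each is the 250 bases before the annotated start, read 5′ to 3′ on the strand of the gene from RefSeq on GRCm38.p6. Capitals mark matches to SMAD-binding motifs, searched on both strands: GGCGCC and GGAGCC (read as GGCTCC on the other strand), which are bound by SMAD1 and SMAD5, and CAGACA, read as TGTCTG on the other strand, which holds a SMAD box. No marked matches overlap.
*Id2*, chr12:25096093-25096342, minus strand: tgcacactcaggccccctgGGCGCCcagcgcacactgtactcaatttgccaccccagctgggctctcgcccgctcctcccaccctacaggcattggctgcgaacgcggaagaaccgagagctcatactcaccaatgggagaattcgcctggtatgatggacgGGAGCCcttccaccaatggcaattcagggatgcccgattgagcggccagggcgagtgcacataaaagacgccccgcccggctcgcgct
*Id3*, chr4:136143572-136143821, plus strand: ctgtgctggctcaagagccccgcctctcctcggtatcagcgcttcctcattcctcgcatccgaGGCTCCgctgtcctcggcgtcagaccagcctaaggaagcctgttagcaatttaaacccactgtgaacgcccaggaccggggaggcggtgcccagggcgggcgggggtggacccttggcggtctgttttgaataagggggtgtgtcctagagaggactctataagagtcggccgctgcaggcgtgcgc
*Acvr1*, chr2:58566829-58567078, minus strand: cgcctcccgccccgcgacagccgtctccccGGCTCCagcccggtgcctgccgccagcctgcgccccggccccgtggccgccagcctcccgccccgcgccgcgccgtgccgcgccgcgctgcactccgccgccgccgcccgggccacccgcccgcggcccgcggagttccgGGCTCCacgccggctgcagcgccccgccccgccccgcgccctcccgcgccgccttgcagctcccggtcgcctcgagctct
*Bmp5*, chr9:75775115-75775364, plus strand: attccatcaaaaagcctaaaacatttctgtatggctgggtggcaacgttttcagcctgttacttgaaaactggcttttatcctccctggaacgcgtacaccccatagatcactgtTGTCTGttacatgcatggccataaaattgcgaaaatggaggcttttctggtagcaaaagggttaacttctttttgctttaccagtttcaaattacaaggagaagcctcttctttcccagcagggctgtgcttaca

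The *Id2* window held GGCGCC 231 bases and GGAGCC 88 bases before the start. In the *Id3* window GGCTCC lay 187 bases before the start, and in the *Acvr1* window it lay 220 and 80 bases before it. The only match in the *Bmp5* window was TGTCTG, 135 bases before the start. The *Acvr1* window had a GC content of 85.6%, and those of *Id2* and *Id3* 62.8% each, compared with 42.8% for *Bmp5*. The table of promoters held 36 of the 51 members, and *Id1* and *Bmp2* are given by name only. Some members have more than 1 window, and the 36 members have 43. GGCGCC was found in 9 of the 43 windows and in 9.59% of all 32851 windows, GGAGCC in 23 of them and in 26% of all windows, and CAGACA in 6 of them and in 17.1% of all windows. The shares of GGCGCC and GGAGCC were thus higher in the member windows. Both motifs are rich in G and C, and the GC content of member windows was not compared with that of all windows. The SMAD3 and SMAD4 palindrome GTCTAGAC was in 0 of the 43 windows and in 0.167% of all windows. The palindrome TTCNNNGAA, the form of DNA site that STAT proteins bind downstream of GP130, was in 0 of the 43 windows and in 7.02% of all windows. These matches describe letters in a short window and no binding was measured.

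Among the BMP and GDF ligands the largest differences lay in opposite directions, with less *Bmp2* and more *Bmp5* RNA in *Gp130* ecKO uteri, and neither gene was called with all 6 uteri. *Bmp2* (ENSMUSG00000027358, chromosome 2, 133394079 to 133404816 on GRCm39) encodes the BMP that the mouse uterus needs for decidualization. Its values were 8.66, 4.74 and 23.5 CPM in control uteri, against 2.26, 2.69 and 1.99 CPM in *Gp130* ecKO. All 3 *Gp130* ecKO uteri were lower than any control, although control 3 was far above the other controls. The log2 fold change was −2.39 (SE 0.60, adjusted p = 0.0922), a ratio of mean CPM of 5.32 between control and *Gp130* ecKO. Without control 3 it was −1.53 (adjusted p = 0.164) and without control 2 −2.74 (adjusted p = 0.0317), and over all alternatives the adjusted p ranged from 0.0015 to 0.263.

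*Bmp5* (ENSMUSG00000032179, chromosome 9, 75682638 to 75807592 on GRCm39), a BMP ligand of the same subgroup as *Bmp6* and *Bmp7*, showed 0.243, 5.67 and 0.2 CPM in control uteri, against 20.2, 11.4 and 12.9 CPM in *Gp130* ecKO. Controls 1 and 3 were close to 0, with the weight of 3 counts at 0.121 and 0.2 CPM in those libraries, and control 2 was the only control with an appreciable level. Even so, the lowest *Gp130* ecKO uterus was above control 2. The fitted change was 2.80 (SE 1.02, adjusted p = 0.156). Control 2 made it smaller, since leaving that uterus out gave 6.03 (adjusted p = 0.00637), and the adjusted p ranged from 0.00637 to 0.342 over the alternatives. *Gm26903*, annotated on the opposite strand, shares 44.8% of the 75-base stretches of *Bmp5* transcripts and was at or below 0.0769 CPM in every uterus.

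*Gdf11*, a ligand that signals through activin receptors, was at 13.9, 21.0 and 26.3 CPM in control uteri, against 6.06, 14.5 and 6.59 CPM in *Gp130* ecKO. *Gp130* ecKO 2 reached above control 1, so the groups overlapped. Its change was −1.17 (SE 0.41, adjusted p = 0.147), or −1.10 (adjusted p = 0.192) without control 2. *Sarnp*, on the opposite strand over 9.06% of the *Gdf11* stretches, was at 72.8 to 76.3 CPM in controls and 55.2 to 66.9 CPM in *Gp130* ecKO, and its part in the *Gdf11* counts was not tested. The other tested ligands of this group overlapped between groups and had an unadjusted p above 0.05. They were *Gdf10*, from 19.3 to 64.7 CPM over the 6 uteri, *Bmp7*, from 11.4 to 60.5 CPM, *Bmp4*, from 1.47 to 6.35 CPM, *Bmp6*, from 2.60 to 8.86 CPM, and *Bmp3*, from 1.29 to 3.35 CPM. *Gdf15* and *Bmp8a* were too low for the test. *Gdf15* was at most 1.12 CPM, in *Gp130* ecKO 3, and *Bmp8a* at most 0.136 CPM, where 2.78% of its stretches of 75 bases are shared with *Bmp8b*.

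**Figure D2:**
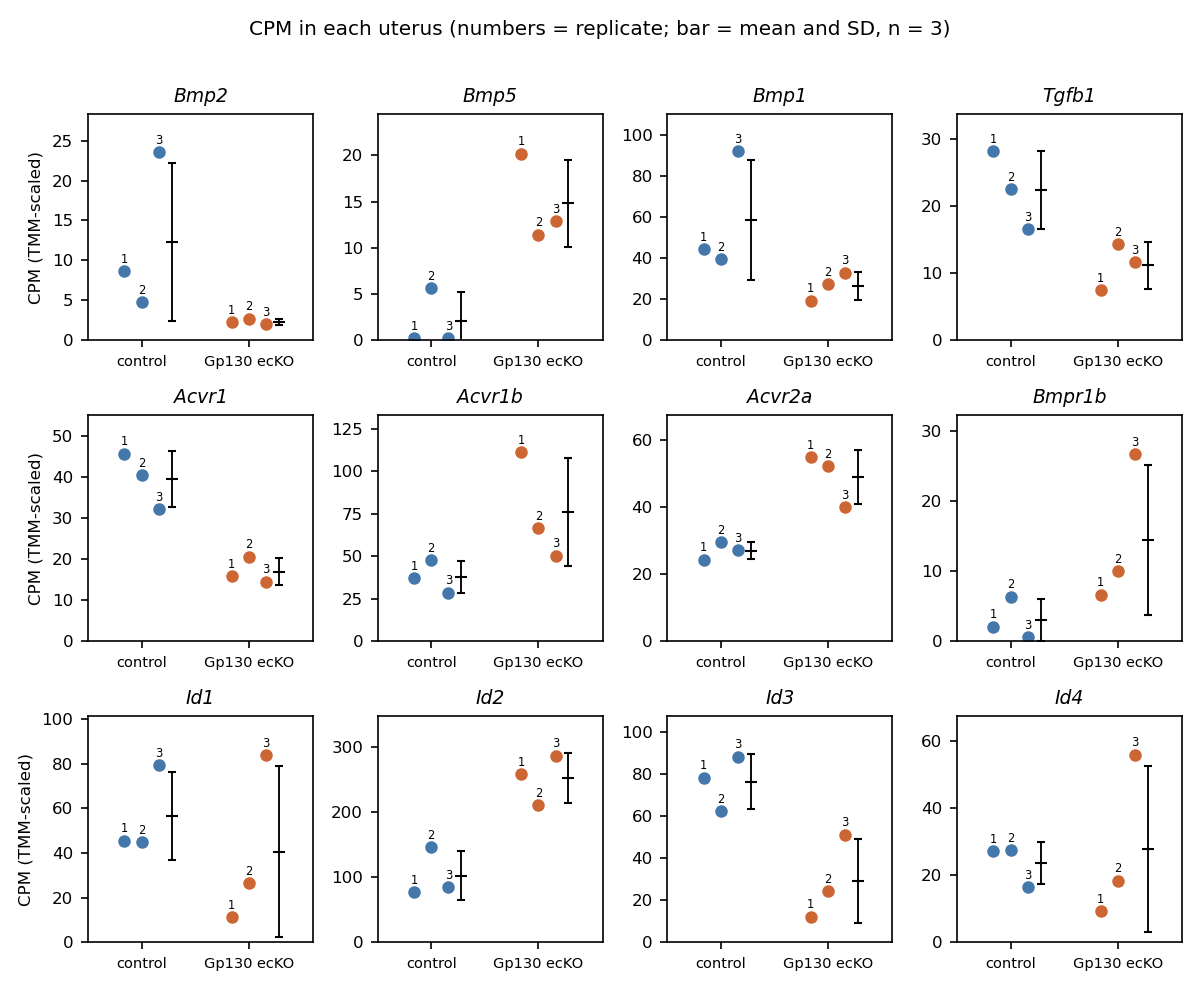
CPM of 12 members in each uterus (y axis, linear), with blue points for controls, orange points for *Gp130* ecKO, the replicate number above each point, and a bar for mean and SD (n = 3), which is cut at 0 for control *Bmp5*. *Id2* is higher in every *Gp130* ecKO uterus than in any control, *Acvr1* and *Bmp2* are lower, and *Id1* and *Id4* spread widely within *Gp130* ecKO.

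Of the 3 TGF-beta ligands, 2 were lower in every *Gp130* ecKO uterus than in any control, and none was called. Among all tested genes 15.6% were lower with no overlap. *Tgfb1* was at 28.2, 22.6 and 16.5 CPM in control uteri, against 7.46, 14.3 and 11.6 CPM in *Gp130* ecKO. The difference was −1.01 (SE 0.32, adjusted p = 0.122). *Tgfb3* was at 15.3, 16.7 and 12.6 CPM in control uteri, against 9.13, 8.81 and 7.71 CPM in *Gp130* ecKO, with little spread inside either group. Its change was −0.80 (SE 0.23, adjusted p = 0.112). *Tgfb2* did not follow the other two, with values from 10.2 to 48.1 CPM and *Gp130* ecKO 3 above all other uteri. The fitted *Tgfb2* change was 0.27 (SE 0.55, adjusted p = 0.774), and without *Gp130* ecKO 3 it was −0.69.

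The activin, inhibin, nodal and lefty genes had a mean of at most 3.88 TPM over the 6 uteri, that of *Lefty1*. None of the tested ones separated the groups. *Inhba*, which encodes the subunit of activin A, had 1.90, 0.656 and 2.27 CPM in control uteri, against 0.588, 0.577 and 1.12 CPM in *Gp130* ecKO. *Gp130* ecKO 3 lay above control 2, so the groups overlapped, and the change was −1.04 (SE 0.57, adjusted p = 0.291), or −1.40 (adjusted p = 0.136) without control 2. *Inhbb*, which encodes the subunit of activin B, was at 15.7, 4.59 and 3.40 CPM in control uteri, against 5.02, 2.58 and 19.2 CPM in *Gp130* ecKO. The highest control and the highest *Gp130* ecKO uterus were similar, and the change was 0.17 (SE 0.83, adjusted p = 0.908). On omitting single uteri it lay between −1.05 and 1.18. *Lefty1*, whose product blocks nodal signaling, had 2.95, 5.13 and 4.80 CPM in control uteri, against 1.81, 2.85 and 3.65 CPM in *Gp130* ecKO. Its groups overlapped, with −0.63 (SE 0.39, adjusted p = 0.35).

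*Nodal*, *Lefty2* and *Inha* did not have enough counts for the test. *Nodal* had 2 counts in control 2 and 0 in the other 5 uteri, where 3 counts, the limit that a count of 0 allows, would be between 0.115 and 0.2 CPM. *Lefty2*, a second nodal antagonist, had 0.202, 0.463 and 0.133 CPM in control uteri, against 0, 0 and 0.497 CPM in *Gp130* ecKO. *Gp130* ecKO 1 and 2 had 0 counts, whereas *Gp130* ecKO 3 and control 2 had 12 counts each. By deposited TPM control 1 was the highest, at 0.42 TPM. *Lefty1* and *Lefty2* share 10.3% and 6.45% of their stretches of 75 bases, so reads in those stretches were divided by the counting model. *Inha*, which encodes the inhibin alpha subunit, was highest in control 3, at 1.93 CPM, and at or below 0.271 CPM in *Gp130* ecKO. *Obsl1*, on the opposite strand over 14.9% of the *Inha* stretches, was also highest in control 3, at 33.6 CPM, and was at 17.7 and 18.5 CPM in controls 1 and 2 and 6.43 to 10.1 CPM in *Gp130* ecKO, and its part in the *Inha* counts was not tested.

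Of the 3 genes for ligand processing and latency, *Bmp1* and *Ltbp1* were lower in each *Gp130* ecKO uterus than in any control. None of the 3 was called, and 15.6% of all tested genes were lower with no overlap. *Bmp1*, which despite its name encodes a protease that cleaves procollagen and chordin, was at 44.3, 39.4 and 92.2 CPM in control uteri, against 19.4, 27.3 and 32.9 CPM in *Gp130* ecKO. Each *Gp130* ecKO value was below the lowest control, and the change was −1.14 (SE 0.36, adjusted p = 0.125). On omitting single uteri it lay between −1.32 and −0.66. *Ltbp1*, which encodes a protein that anchors latent TGF-beta in the matrix, was at 30.7, 26.4 and 26.9 CPM in control uteri, against 10.4, 9.69 and 21.1 CPM in *Gp130* ecKO. *Gp130* ecKO 3 was above the other *Gp130* ecKO uteri and still below the controls. The change of *Ltbp1* was −1.02 (SE 0.33, adjusted p = 0.124). *Ltbp2* ranged from 0.308 to 2.95 CPM and overlapped between groups, with a change of −0.82 (SE 0.82, adjusted p = 0.554) that lay between −1.35 and 0.48 on omitting single uteri.

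None of the 11 receptor genes was called, and by the fit 6 were higher and 5 lower in *Gp130* ecKO. Of the 6 type I receptor genes, *Acvr1b*, *Bmpr1a* and *Bmpr1b* were higher in every *Gp130* ecKO uterus than in any control, *Acvr1* was lower, and *Tgfbr1* and *Acvrl1* overlapped. Among all tested genes 15.7% were higher and 15.6% lower with no overlap between groups. *Acvr1* (ENSMUSG00000026836, chromosome 2, 58278656 to 58457770 on GRCm39), also called ALK2, encodes a BMP type I receptor that the mouse uterus needs for decidualization. It was at 45.8, 40.5 and 32.3 CPM in control uteri, against 15.8, 20.7 and 14.6 CPM in *Gp130* ecKO. The groups were well apart, with the highest *Gp130* ecKO uterus below the lowest control. The change was −1.22 (SE 0.22, adjusted p = 0.0648), and on omitting single uteri it lay between −1.38 and −1.07. DESeq2 gave it an adjusted p of 0.000224, and all alternatives together ranged from 0.000224 to 0.205. Its promoter is the GC-rich sequence printed above.

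*Acvr1b*, also called ALK4, the type I receptor of activins, was at 37.2, 47.5 and 28.7 CPM in control uteri, against 111, 66.4 and 50.4 CPM in *Gp130* ecKO. *Gp130* ecKO 1 was the highest and *Gp130* ecKO 3 only a little above control 2. The change was 1.01 (SE 0.32, adjusted p = 0.127), or 0.63 (adjusted p = 0.333) without *Gp130* ecKO 1. *Bmpr1a*, also called ALK3, was at 90.1, 96.6 and 101 CPM in control uteri, against 132, 135 and 119 CPM in *Gp130* ecKO. All uteri of a group were close to each other, and the difference between groups was small at 0.42 (SE 0.14, adjusted p = 0.136). *Bmpr1b*, also called ALK6, was at 2.10, 6.40 and 0.600 CPM in control uteri, against 6.65, 9.999 and 26.7 CPM in *Gp130* ecKO. Control 2 came close to *Gp130* ecKO 1, the other controls were lower, and *Gp130* ecKO 3 was the highest. Its change was 2.21 (SE 0.81, adjusted p = 0.158), with 3.36 (adjusted p = 0.0633) without control 2 and 1.44 (adjusted p = 0.337) without *Gp130* ecKO 3. *Tgfbr1*, from 43.9 to 136 CPM, and *Acvrl1*, an endothelial receptor also called ALK1, from 25.6 to 66.5 CPM, had fitted changes of −0.69 and −0.71 and an unadjusted p above 0.05. For *Tgfbr1* the change was −0.98 (adjusted p = 0.0676) without control 2 and −0.22 (adjusted p = 0.681) without control 3.

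Of the 4 type II receptor genes, *Acvr2a* was higher with no overlap between groups, beside 15.7% of all tested genes. It was at 24.3, 29.5 and 27.2 CPM in control uteri, against 54.8, 52.1 and 39.9 CPM in *Gp130* ecKO. Controls were within a narrow range and the lowest *Gp130* ecKO uterus was above all of them. The change was 0.86 (SE 0.19, adjusted p = 0.0807). The gene *Orc4*, between 34.2 and 62.8 CPM, covers 28.6% of the *Acvr2a* stretches on the opposite strand, and control 3 had its highest value. *Bmpr2*, the main type II receptor for BMPs, was at 114, 111 and 135 CPM in control uteri, against 146, 122 and 101 CPM in *Gp130* ecKO. These ranges overlapped, and the change of 0.03 (SE 0.19, adjusted p = 0.917) had a sign that depended on the scaling, since it was −0.04 with upper quartile normalization. *Tgfbr2*, the type II receptor of the TGF-betas, was at 163, 177 and 128 CPM in control uteri, against 85.0, 129 and 109.7 CPM in *Gp130* ecKO. Only *Gp130* ecKO 2, slightly above control 3, kept the groups from separating, and the change was −0.53 (SE 0.21, adjusted p = 0.178), or −0.40 (adjusted p = 0.333) without control 2. *Acvr2b* ranged from 2.04 to 3.98 CPM and overlapped. *Tgfbr3*, which encodes the co-receptor betaglycan, was at 74.4, 69.2 and 92.4 CPM in control uteri, against 63.5, 40.7 and 50.5 CPM in *Gp130* ecKO. All *Gp130* ecKO values lay below the controls, with −0.61 (SE 0.21, adjusted p = 0.146).

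Inside the cell, the fitted changes of the 8 SMAD genes lay between −0.71 and 0.60, and those of the 14 tested ligands between −2.39 and 2.80. *Smad1* was at 142, 114 and 89.9 CPM in control uteri, against 86.3, 81.8 and 73.0 CPM in *Gp130* ecKO. Control 3 was just above *Gp130* ecKO 1, and the change was −0.52 (SE 0.20, adjusted p = 0.167), or −0.50 (adjusted p = 0.231) without control 2. *Smad5*, which acts in the same branch, was at 228, 124 and 195 CPM in control uteri, against 133, 117 and 98.8 CPM in *Gp130* ecKO. The groups overlapped through control 2, with −0.64 (SE 0.25, adjusted p = 0.169). *Smad4*, the partner of all receptor SMADs, was at 69.6, 66.1 and 52.3 CPM in control uteri, against 76.0, 77.3 and 71.3 CPM in *Gp130* ecKO. The groups did not overlap, but *Gp130* ecKO 3 exceeded control 1 by little, and the change was 0.26 (SE 0.17, adjusted p = 0.363). *Smad2*, from 43.3 to 61.3 CPM, *Smad3*, from 50.9 to 115 CPM, and *Smad9*, from 0.407 to 1.73 CPM, overlapped between groups. So did the inhibitory SMADs, *Smad6*, from 14.8 to 19.1 CPM, and *Smad7*, from 10.4 to 21.3 CPM, with fitted changes of 0.12 and 0.60. Without control 2 the change of *Smad7* was 0.84 (adjusted p = 0.148).

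Of the 6 genes for secreted antagonists and follistatin-like proteins 5 were lower by the fit, and none was called. Only 1 of them did not overlap between groups, beside 15.6% of all tested genes. *Fst* encodes follistatin, which binds activins and which the mouse uterus needs for receptivity. It was at 15.0, 55.1 and 65.8 CPM in control uteri, against 19.8, 21.3 and 14.5 CPM in *Gp130* ecKO. Control 1 was as low as the *Gp130* ecKO uteri, and controls 2 and 3 were above all of them. The change was −1.29 (SE 0.49, adjusted p = 0.167), or −1.08 (adjusted p = 0.252) without control 2. *Fstl3*, a related activin binder, was at 7.77, 10.4 and 16.7 CPM in control uteri, against 3.62, 7.73 and 4.56 CPM in *Gp130* ecKO. The lowest control and the highest *Gp130* ecKO uterus were nearly equal, and the change was −1.12 (SE 0.41, adjusted p = 0.157). *Prss57*, on the opposite strand over 45.5% of the *Fstl3* stretches, was at or below 0.54 CPM in every uterus. *Fstl1*, from 74.3 to 308 CPM, *Nog*, from 2.36 to 17.1 CPM, *Chrd*, from 3.61 to 15.0 CPM, and *Grem1*, from 0 to 0.810 CPM, overlapped. *Nog* was between 12.0 and 17.1 CPM in 5 of the 6 uteri and at 2.36 CPM in *Gp130* ecKO 3.

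The 4 ID genes, whose products bind basic helix-loop-helix factors and keep them off DNA, did not move as a group. *Id2* (ENSMUSG00000020644, chromosome 12, 25143798 to 25147282 on GRCm39) was at 76.8, 146 and 85.3 CPM in control uteri, against 259, 211 and 287 CPM in *Gp130* ecKO. All 3 *Gp130* ecKO uteri were higher than any control, and control 2 was the highest control. The change was 1.3 (SE 0.28, adjusted p = 0.0764), and 1.67 (adjusted p = 0.0159) without control 2. *Gm59395* and *Gm36287*, on the opposite strand, share 29.5% of the *Id2* stretches. *Gm36287* was at or below 0.2 CPM in every uterus, no level is given for *Gm59395*, and their part in the *Id2* counts was not tested. *Id3* (ENSMUSG00000007872, chromosome 4, 135870808 to 135873066 on GRCm39) was lower in every *Gp130* ecKO uterus, at 78.2, 62.4 and 88.3 CPM in control uteri, against 12.3, 24.5 and 51.1 CPM in *Gp130* ecKO. *Gp130* ecKO 3 was not far below the controls, and *Gp130* ecKO 1 was the lowest. The change was −1.38 (SE 0.47, adjusted p = 0.137), and on omitting single uteri it ranged from −2.02, without *Gp130* ecKO 3, to −1.01, without *Gp130* ecKO 1. The *Id2* and *Id3* windows printed above both hold a GGAGCC match.

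*Id1* was at 45.4, 44.7 and 79.1 CPM in control uteri, against 11.4, 26.6 and 83.8 CPM in *Gp130* ecKO. *Gp130* ecKO 1 and 2 were below all controls and *Gp130* ecKO 3 was above them, so that the change of −0.47 (SE 0.65, adjusted p = 0.67) was smaller than its standard error. Without *Gp130* ecKO 3 it was −1.53. *Id4* was at 27.3, 27.5 and 16.5 CPM in control uteri, against 9.36, 18.4 and 55.9 CPM in *Gp130* ecKO. *Gp130* ecKO 3 was the highest and *Gp130* ecKO 1 the lowest of all 6 uteri. Its change was 0.23 (SE 0.59, adjusted p = 0.829), and without *Gp130* ecKO 3 it was −0.75, with the sign turned. *Gp130* ecKO 3 was the highest *Gp130* ecKO uterus for all of *Id1*, *Id2*, *Id3* and *Id4*.

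By deposited TPM averaged over the 6 uteri, *Id2*, *Id1*, *Fstl1* and *Id3* were the most abundant members, followed by *Smad1* and *Smad4*. The order differed by group. In *Gp130* ecKO the mean of *Id3* was below those of *Smad4*, *Smad1* and *Bmpr1a* and that of *Smad4* above *Fstl1*, and in controls the mean of *Smad5* was above that of *Smad4*. *Id2* had the highest mean level, 112 ± 41.4 TPM in the controls and 289 ± 19.1 TPM in *Gp130* ecKO (SD, n = 3). *Id1* was at 85.2 ± 33.3 TPM in the controls and 61.2 ± 52.2 TPM in *Gp130* ecKO (SD, n = 3). *Id3* was at 85.9 ± 20.4 TPM in the controls and 33.5 ± 19.6 TPM in *Gp130* ecKO (SD, n = 3). *Fstl1* was at 79.5 ± 36.8 TPM in the controls and 45.4 ± 25.2 TPM in *Gp130* ecKO (SD, n = 3). In the controls these 4 genes did not differ beyond their spread, whereas in *Gp130* ecKO the lowest *Id2* value was above the highest value of the other three. Among the ligands *Bmp7*, *Tgfb1* and *Gdf10* had mean TPM between 10.7 and 11.3 over the 6 uteri, and *Bmp2* was at 4.74 ± 4.06 TPM in the controls and 0.927 ± 0.231 TPM in *Gp130* ecKO (SD, n = 3). *Bmp5* was at 0.803 ± 1.16 TPM in the controls and 6.89 ± 3.03 TPM in *Gp130* ecKO (SD, n = 3).

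**Figure D3:**
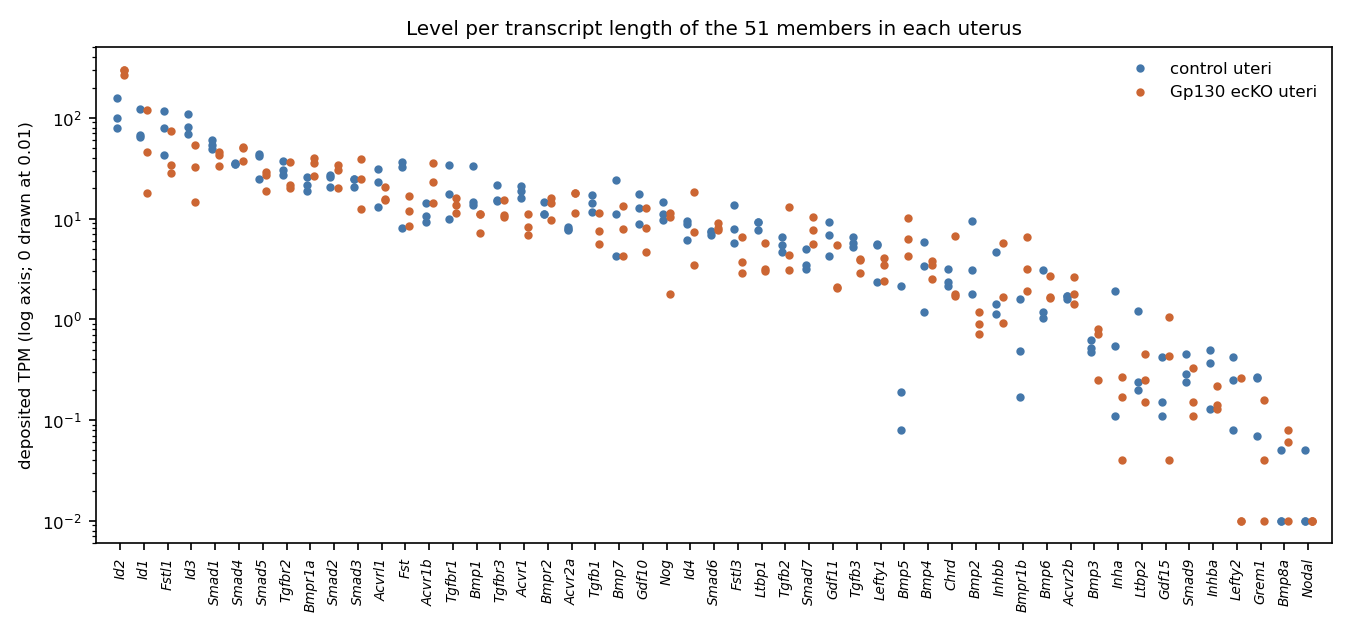
Deposited TPM (y axis, log scale, with 0 drawn at 0.01) of all 51 members in each uterus, ordered by mean level from *Id2* at 200.6 to *Nodal* at 0.0083, with control uteri in blue and *Gp130* ecKO uteri in orange. *Id2*, *Id1*, *Fstl1* and *Id3* lie farthest to the left, and *Nodal*, *Bmp8a*, *Grem1* and *Lefty2* farthest to the right.

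**Figure D4:**
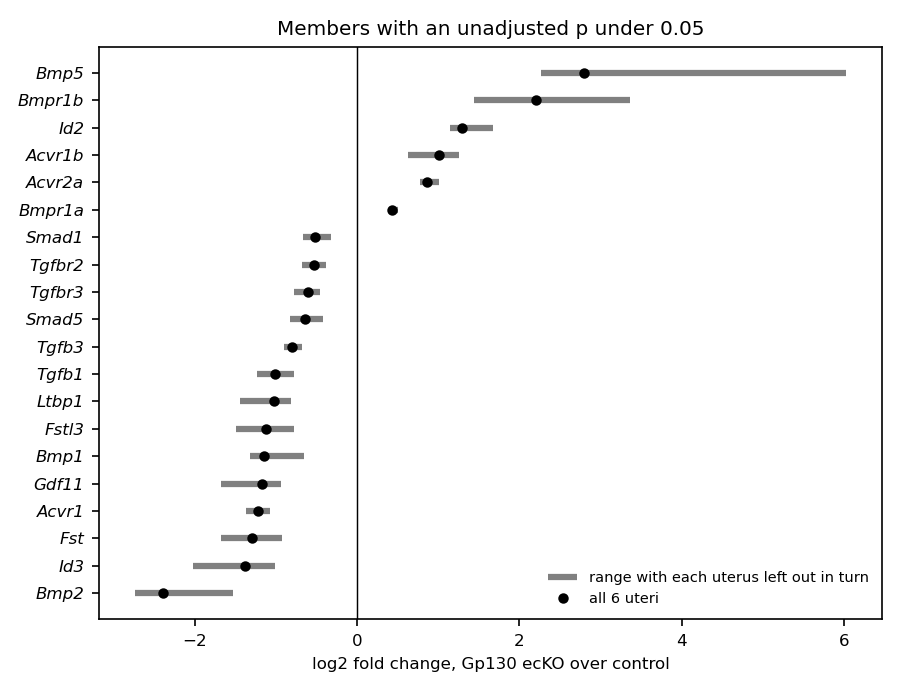
Log2 fold change (x axis) of the 20 members with an unadjusted p below 0.05 (y axis), with a point for all 6 uteri and a grey line for the range on omitting single uteri. No line crosses 0, and the line of *Bmp5*, which reaches 6.03 without control 2, is the longest. The members drawn were selected by their p in the same uteri, so their lines are no separate check. The 10 members that changed sign on omitting single uteri are not among them.

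The rest of the pathway was read from a list of 69 further genes, of which 50 could be tested. None was called, while DESeq2 called 6 of 47 (9.91% of all genes), the exact test 5 (7.54%) and the likelihood ratio test 5 (7.93%). Without control 2, *Bambi*, *Tmeff1*, *Ccn1* and *Msx1* were called of 51 genes, beside 5.23% of all genes. At an unadjusted p below 0.05 there were 9 higher and 14 lower genes, beside 12.1% and 12.9% of all genes, and 8 higher and 11 lower without control 2, beside 14.2% and 13.1%. The groups did not overlap for 10 higher and 11 lower genes, beside 15.7% and 15.6% of all genes, and the median change was −0.35.

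Higher in *Gp130* ecKO were *Bambi*, *Msx1*, *Tmeff1*, *Rgmb* and *Thbs1*. *Bambi*, which encodes a decoy receptor that lacks the kinase domain, was at 39.4, 111 and 49.3 CPM in control uteri, against 137, 226 and 161 CPM in *Gp130* ecKO. Controls 1 and 3 were the lowest and control 2 was below *Gp130* ecKO 1, with 1.39 (SE 0.40, adjusted p = 0.112), or 2.02 (adjusted p = 0.0182) without control 2. *Msx1*, a homeobox target of BMP signaling that is known to fall in the uterus as implantation begins, was at 209.8, 563 and 207 CPM in control uteri, against 784, 811 and 844 CPM in *Gp130* ecKO. The *Gp130* ecKO uteri were almost equal to each other and above control 2, with 1.32 (SE 0.41, adjusted p = 0.12), or 2.00 (adjusted p = 0.0113) without control 2. *Tmeff1* had 0.92 (SE 0.20, adjusted p = 0.0787), or 1.13 (adjusted p = 0.0362) without control 2, and *Rgmb*, a BMP co-receptor, had 0.80 (SE 0.19, adjusted p = 0.0897). *Thbs1*, whose product can release TGF-beta from its latent form, had 0.79 (SE 0.33, adjusted p = 0.196).

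Lower were *Ccn1*, *Kcp*, *Nrros*, *Crim1* and *Atoh8*. *Ccn1*, a matrix protein gene that TGF-beta induces, was at 95.4, 25.0 and 47.4 CPM in control uteri, against 20.9, 9.81 and 21.9 CPM in *Gp130* ecKO. The groups did not overlap although control 1 was far above the other controls, and the change was −1.67 (SE 0.51, adjusted p = 0.119). Without control 1 it was −1.01 and without control 2 it was −2 (adjusted p = 0.0495). *Nrros*, which encodes an anchor of latent TGF-beta on myeloid cells, was at 31.4, 17.7 and 23.8 CPM in control uteri, against 6.51, 12.7 and 9.45 CPM in *Gp130* ecKO. *Gp130* ecKO values lay below all controls, with −1.35 (SE 0.33, adjusted p = 0.09). The changes of *Kcp*, *Crim1* and *Atoh8* were −1.61 (SE 0.52), −1.18 (SE 0.43) and −1.09 (SE 0.42), and that of *Crim1* was −0.51 without control 1. Without control 2 *Kcp* and *Atoh8* had −1.38 (adjusted p = 0.2) and −1.16 (adjusted p = 0.187) and an unadjusted p above 0.05. *Ccn2*, another matrix protein gene that TGF-beta induces, is named after its values were seen. It was at 710.2, 675 and 223 CPM in control uteri, against 228, 100.4 and 36.9 CPM in *Gp130* ecKO. *Gp130* ecKO 1 was slightly above control 3, so the groups overlapped, and the change was −2.14 (SE 0.69, adjusted p = 0.126), or −2.96 without *Gp130* ecKO 1. DESeq2, the exact test and the likelihood ratio test called it, and its adjusted p lay between 0.0125 and 0.244 across settings.

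Markers of some cell types moved with the groups in the same RNA. Beside the sums given above, 5 of the 6 epithelial markers were higher and 6 of the 7 stromal markers lower by the fit, and the stromal list includes *Dcn*, which is also 1 of the 69 further pathway genes. The 5 endothelial markers summed to 342 to 820 CPM in controls and 185 to 332 CPM in *Gp130* ecKO, and all 5 were lower. Macrophage markers summed to 150 to 219 CPM in controls and 75.5 to 166 CPM in *Gp130* ecKO, 5 of 6 lower. Neutrophil markers summed to 2.07 to 5.95 CPM in controls and 0.633 to 3.61 CPM in *Gp130* ecKO, and differed in direction. *S100a8* and *S100a9* were lower with no overlap, with changes of −3.24 (SE 0.75, adjusted p = 0.0745) and −3.42 (SE 0.97, adjusted p = 0.106). *Mpo*, too low for the test, was also lower with no overlap. *Ly6g* overlapped, with a change of 1.08 (SE 0.73, adjusted p = 0.385). These neutrophil markers had at most 63 counts in any uterus.

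Smooth muscle markers varied within both groups, from 573 to 2803 CPM in controls and from 480.2 to 3019 CPM in *Gp130* ecKO, where *Gp130* ecKO 3 was the highest, and whether the muscle wall was removed from any uterus is not given in the sources used here. That uterus was also the highest *Gp130* ecKO uterus for *Tgfb2*, *Id1*, *Id3* and *Id4*, whereas control 3, with the lowest muscle sum of the controls, was the highest control for *Tgfb2*, *Id1* and *Id3* and the lowest for *Id4*. Gland markers reached 8666 CPM in *Gp130* ecKO 1 through *Prss28* and *Prss29* and were between 82.3 and 1045 CPM in the other 5 uteri. *Ovgp1*, the oviduct glycoprotein gene used as the only oviduct marker, was between 47.9 and 85.3 CPM in controls and between 552 and 1193 CPM in *Gp130* ecKO. This gene was called, with a change of 3.68 (SE 0.40, adjusted p = 0.0377), and which tissue the RNA came from was not tested. The ovary markers *Fshr*, *Cyp19a1* and *Zp3* and the blastocyst markers *Pou5f1* and *Cdx2* had at most 3 counts in every uterus. Of the other markers on those lists, *Star* was at 6.88 to 15.6 CPM in controls and 3.52 to 5.52 CPM in *Gp130* ecKO, *Eomes* at 0.912 to 7.001 CPM and *Elf5* at 1.01 to 10.6 CPM over all uteri, *Gdf9* at no more than 0.771 CPM, and *Amh* and *Nanog* had at most 7 counts. In whole tissue, fewer cells of a type and less RNA per cell cannot be told apart. The part of these marker differences in the member results was not tested.

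**Figure D5:**
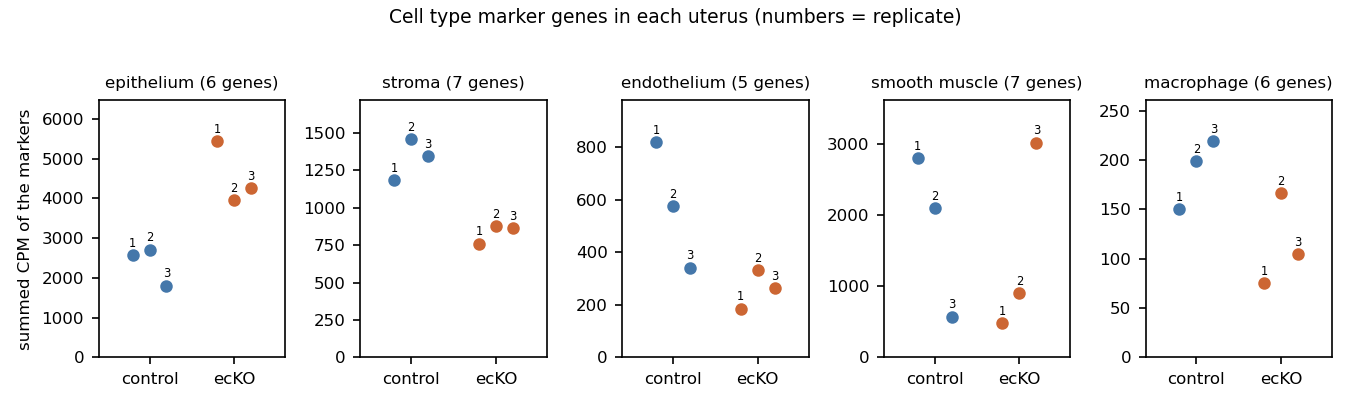
Summed CPM of the marker genes of 5 cell types (y axes, linear, 1 panel each) in each uterus, with controls in blue and *Gp130* ecKO in orange and the replicate number above each point. Epithelial sums are higher and stromal and endothelial sums lower in every *Gp130* ecKO uterus than in any control, and smooth muscle and macrophage sums overlap.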

How the data were processed

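RNA of 3 control and 3 *Gp130* ecKO uteri was analysed from 1 gene table per uterus. Per the labels and the methods of the study, poly(A) RNA with an integrity number over 7.0 was made into strand-specific libraries and read as single reads of 75 bp. The authors trimmed the reads with fastp 0.23.2, removed ribosomal RNA with SortMeRNA, mapped to GRCm39 with STAR 2.7.10a and estimated counts with RSEM 1.3.3. The deposited expected counts are RSEM estimates that divide shared reads between genes and are not normalized. The deposited TPM values are scaled by the authors for gene length and depth, and the deposited FPKM values were not used. The annotation release and the use of strand in counting are not given in the sources used here, so reads of genes on opposite strands may not be separated.

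Expected counts were rounded and tested in R 4.3.3 with edgeR 4.0.16: filterByExpr, TMM, glmQLFit with legacy = FALSE and glmQLFTest, with Benjamini-Hochberg adjustment over 16605 genes. DESeq2 1.42.0 and edgeR's exact and likelihood ratio tests were alternatives, with other normalizations, filters and thresholds, unrounded counts, a replicate block and the omission of single uteri. The scripts were tested on simulated data. The SE was taken as the absolute log2 fold change over the square root of F. Permuting log2(CPM + 0.5) over the uteri exactly, two-sided, 3 against 3, cannot give a p below 0.1. Symbols and GRCm39 coordinates came from GENCODE M39, which holds 56017 of the 56748 identifiers. Total counts from 13960748 to 25906443 set the precision, with 3 counts at 0.115 to 0.2 CPM, and such limits cover counting error only.

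The 51 members, the 69 further pathway genes and the marker lists were chosen with earlier results of these data known. Values in every uterus are given for members with an unadjusted p below 0.05 or no overlap between groups and for *Bmp2*, *Inhba*, *Inhbb*, *Nodal*, *Lefty1*, *Lefty2*, *Acvr1*, *Bmpr2*, *Fst* and the 4 ID genes. Of the further pathway genes, those named are the called ones and the 5 higher and 5 lower with the largest change among those with an unadjusted p below 0.05, no overlap and a mean of at least 1 CPM. *Ccn2*, outside this rule, was added after its values were seen.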

Additional observations from a re-analysis of the deposited data

How the results depend on the processing

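Of 781 fits of a member under an alternative (46 members and 17 alternatives, with *Grem1* left out by the filter on CPM of at least 1), 737 kept the direction and the side of the threshold, 25 in 13 members passed an adjusted p of 0.05 that the quasi-likelihood test with all uteri did not, and 19 in 10 members changed sign. DESeq2 gave *Grem1* a fold change but no adjusted p, so for that fit only the direction could be compared. For 36 members the sign held under every alternative run. With the replicate block the fold change was 0.017 for *Bmp6*, −0.064 for *Tgfb2*, −0.10 for *Inhbb* and −0.16 for *Id4*, and for *Bmpr2* it was −0.039 with upper quartile normalization and −0.021 with no normalization beyond library totals. On omitting single uteri it ranged from −0.12 to 0.44 for *Bmp3*, −0.78 to 0.0074 for *Bmp4*, −0.46 to 0.61 for *Bmp6*, −0.69 to 0.64 for *Tgfb2*, −1.05 to 1.18 for *Inhbb*, −0.10 to 0.19 for *Bmpr2*, −0.45 to 0.14 for *Smad3*, −0.61 to 0.63 for *Chrd*, −0.75 to 0.65 for *Id4* and −1.35 to 0.48 for *Ltbp2*. Members past an adjusted p of 0.05 and 2-fold were 0 by the quasi-likelihood test, 3 by the exact test, 4 by the likelihood ratio test and 9 by DESeq2. By the quasi-likelihood test they were 3 at an adjusted p below 0.1 and 2-fold, 20 at an unadjusted p below 0.05 with no limit on the fold, and 0 to 3 with each uterus left out, the 3 without control 2. For the further pathway genes these counts were 0, 5, 5, 6, 1, 23 and 0 to 4, the 4 without control 2. Over all genes they were 26, 1252, 1317, 1546, 856, 4151 and 1 to 897, with 897 without control 2, 1 without *Gp130* ecKO 3, 2 without control 1, 3 without control 3 or *Gp130* ecKO 2 and 6 without *Gp130* ecKO 1. The legacy form of the test called 7 of all genes, no filter 105 and the replicate block 6. Counts at an unadjusted p below 0.05 without control 2, a setting chosen after seeing the data, were 19 members and 19 further genes. The cause of these differences was not tested. Deviations of same-numbered uteri correlated at 0.10, 0.07 and −0.20, beside −0.31 to 0.22 for uteri with different numbers. With 3 uteri in a group these values showed no pairing by replicate number but cannot exclude it. The replicate block called 0 members. Upper quartile normalization moved the median of all genes by −0.07, the most of any alternative. Depth limits *Nodal*, *Bmp8a*, *Lefty2*, *Inha*, *Gdf15* and *Grem1*, which had at most 29 counts in any uterus.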

Other observations

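Ratios of 2 members within a uterus, taken from the deposited TPM, separated the groups for 5 pairs that were chosen after their values were seen, so they are given as values with no test. The ratio of *Id3* to *Id2* was 1.01, 0.434 and 1.10 in control uteri 1, 2 and 3, against 0.0480, 0.121 and 0.18 for *Gp130* ecKO. The ratio of *Acvr1*, a BMP type I receptor, to *Acvr1b*, the activin type I receptor, was 2.02, 1.34 and 1.74 in control uteri, against 0.23, 0.484 and 0.481 in *Gp130* ecKO. *Acvr1* to *Bmpr1a* gave 1.13, 0.882 and 0.619 in control uteri, against 0.228, 0.278 and 0.259 in *Gp130* ecKO, so that *Bmpr1a* was the more abundant of these BMP type I receptors in all 3 *Gp130* ecKO uteri and in 2 of 3 controls. *Tgfbr2* to *Acvr2a* was 4.01, 4.47 and 3.40 in control uteri, against 1.14, 2.02 and 1.90 in *Gp130* ecKO. *Bmp2* to *Bmp5* was 0.827 in control 2, against 0.0883, 0.188 and 0.167 in *Gp130* ecKO, and no ratio is given for controls 1 and 3, where *Bmp5* had 6 and 3 counts beside 214 and 353 for *Bmp2*.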
